A study of Mus musculus with 8 samples.

Results

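The regions described here carried H3.3 in undifferentiated mouse embryonic stem cells (mESCs) of both genotypes and had no peak in either genotype after differentiation. They were chosen by the peak lists themselves. All peaks of the 4 deposited lists were merged into 58310 regions wherever they overlapped. A region was kept when it held a day 0 peak of Hira-null cells and a day 0 peak of WT cells, overlapped by at least 1 bp, and no day 15 peak of either genotype. This rule gave 4724 regions, 8.1% of all merged regions, which are called shared, lost regions below. "Lost" means only that no peak was called at day 15. The presence and absence of peaks defined the regions, so it is given as a description and is not a finding.

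H3.3-HA ChIP-seq had been done on Hira-null cells (line Clone104, 1 clone that lacks the chaperone HIRA) and on WT cells (line W9.5), both of which express HA-tagged H3.3. Each genotype was sampled at day 15, after differentiation towards cardiomyocytes through embryoid bodies formed in hanging drops, and at day 0, undifferentiated in medium with LIF. Chromatin was prepared without crosslinking by digestion with micrococcal nuclease. A single ChIP library, with its input, represents each of the 4 conditions, so no comparison has a replicate check and no p-value is given. The day 15 lists have 7332 Hira-null and 27272 WT peaks, and the day 0 lists 17706 Hira-null and 22730 WT peaks. The lowest peak score was 50 in every list, and the score is a scaled negative log10 of the peak caller's p-value. Read depth is unknown, so the absence of a peak from the short Hira-null day 15 list and a low depth of that library cannot be told apart. The lists hold no expression values, so neither the deletion nor the cell types were checked against marker genes here. The paper itself reports qRT-PCR of pluripotency markers at day 0 and of cardiac markers at day 15, in both genotypes.

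H3.3 is a histone H3 variant that is placed in chromatin throughout the cell cycle. The HIRA complex delivers it mainly to active genes and enhancers, while ATRX and DAXX deliver it to telomeres, pericentric DNA and silent repeated sequence. In mouse ES cells, endogenous retroviral elements carry H3.3 together with the TRIM28 silencing machinery and zinc finger proteins that recruit it. Pluripotency genes have enhancers that are active in ES cells and are switched off upon differentiation.

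Much of the shared, lost set was repeated sequence, and a few sequences recurred in many of the regions. The 31-base sequences present in the largest number of regions were found one after another, each time among regions not yet accounted for, and low-complexity sequences were set aside. This search was made after the repeat content had been seen. The first 5 are lettered A to E and are shown to let a reader identify the elements, since no repeat annotation of this genome build was used. Each line gives 150 bases of mm9 from the best-ranked region that holds 1 copy, with the shared 31 bases in capitals. The best-ranked region is the one with the best value of the worse of its 2 within-list score ranks.
Sequence A, chr13:12952637-12952786, plus strand: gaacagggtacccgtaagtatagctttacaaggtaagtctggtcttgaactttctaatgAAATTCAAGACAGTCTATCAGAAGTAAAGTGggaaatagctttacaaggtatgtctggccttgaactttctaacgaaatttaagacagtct
Sequence B, chr13:12955453-12955602, plus strand: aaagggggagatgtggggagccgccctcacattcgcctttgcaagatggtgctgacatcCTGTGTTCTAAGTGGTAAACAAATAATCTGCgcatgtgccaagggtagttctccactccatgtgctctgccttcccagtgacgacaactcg
Sequence C, chr11:83046548-83046697, minus strand: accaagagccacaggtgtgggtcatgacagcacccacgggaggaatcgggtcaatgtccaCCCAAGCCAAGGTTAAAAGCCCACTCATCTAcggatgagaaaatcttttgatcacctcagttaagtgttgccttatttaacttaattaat
Sequence D, chr2:20590118-20590267, plus strand: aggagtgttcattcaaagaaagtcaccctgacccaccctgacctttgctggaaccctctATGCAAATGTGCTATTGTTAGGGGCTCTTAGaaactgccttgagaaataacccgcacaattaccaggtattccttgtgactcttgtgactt
Sequence E, chr11:62322225-62322374, minus strand: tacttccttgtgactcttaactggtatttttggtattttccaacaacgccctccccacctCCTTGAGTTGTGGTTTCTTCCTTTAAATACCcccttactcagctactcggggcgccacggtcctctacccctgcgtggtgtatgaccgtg

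Sequence A was in 1140 of the 4724 regions (24.1%), on all 21 chromosomes. It had 2903 exact copies in the genome, of which 1566 lay in shared, lost regions. At day 15, 32 of the 2903 copies (1.1%) lay in a Hira-null peak and 0 in a WT peak. At day 0, 2844 copies (98.0%) lay in a Hira-null peak, against 1408 (48.5%) in a WT peak. Of the 1337 copies outside the shared, lost regions, 1278 (95.6%) lay in a Hira-null day 0 peak and 41 (3.07%) in a WT day 0 peak. The rule bears on all of these shares. Copies inside the regions have day 0 peaks of both genotypes in their region and no day 15 peak, and a copy outside with a Hira-null day 0 peak can hardly have a WT one, so the low WT share outside is no result. The shares of A to E are a description only.

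Sequence B was in 991 regions, 743 of which also held A. The genome had 4861 copies of it. At day 15, 10 copies lay in a Hira-null peak and 1 in a WT peak, against 3780 (77.8%) in a Hira-null peak and 419 (8.62%) in a WT peak at day 0. In the region that supplied both printed stretches, chr13:12950203-12957390, A and B stood on the same strand. That region, 7188 bp of distal intergenic sequence whose nearest protein-coding gene is Prl2c3, had a Hira-null score of 1146 and a WT score of 324. Sequence C was in 203 regions and had 341 copies. At day 15 none of these copies lay in a peak of either genotype, while 300 (88.0%) lay in a Hira-null day 0 peak and 113 (33.1%) in a WT day 0 peak. Of the copies outside the shared, lost regions, 70.4% of B and 70.1% of C lay in a Hira-null day 0 peak, and 0.576% of B and 2.19% of C in a WT day 0 peak.

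Sequences D and E marked narrower regions. D was in 188 regions, with 295 of its 358 copies (82.4%) in a Hira-null day 0 peak and 210 (58.7%) in a WT day 0 peak. E was in 176 regions, with 315 of 439 copies (71.8%) in a Hira-null day 0 peak and 194 (44.2%) in a WT day 0 peak. At day 15, 15 copies of D (4.19%) and 26 of E (5.92%) lay in a Hira-null peak, against 1 and 3 in a WT peak. Outside the shared, lost regions, 62.9% of the 170 copies of D lay in a Hira-null and 14.7% in a WT day 0 peak, and 8.82% in a Hira-null day 15 peak. Of the 262 such copies of E, 52.7% lay in a Hira-null day 0 peak, and the shares in a WT day 0 peak and in a Hira-null day 15 peak were both 9.92%. Regions with D had a median width of 1746 bp and those with E of 1854 bp, whereas the regions with A had a median width of 3333 bp. Both sequences were present in 64 regions. The printed copy of D lies within an intron of Etl4, the gene with the most shared, lost regions, and that of E within an intron of Pigl, an enzyme of GPI anchor synthesis, in the region with the best combined rank of all.

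A sixth sequence, F, was far more abundant in the genome, and few of its copies lay in a peak. It was in 86 regions, and the genome had 35958 copies. Of these, 85 (0.236%) lay in a Hira-null and 367 (1.02%) in a WT day 15 peak, against 268 (0.745%) in a Hira-null and 396 (1.1%) in a WT day 0 peak. Together, A to F marked 1962 regions (41.5%).

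**Figure D1:**
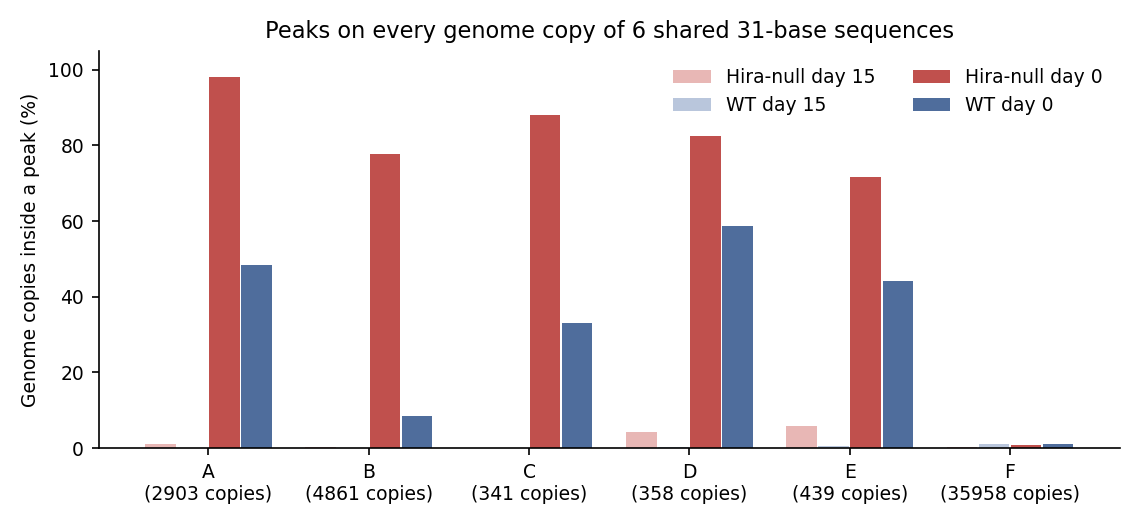
Percentage (vertical axis) of the exact genome copies of sequences A to F (horizontal axis, with the number of copies) that lie in a peak of each list, with the day 15 lists in pale and the day 0 lists in dark colours. Hira-null day 0 peaks cover 71.8% to 98.0% of the copies of A to E, WT day 0 peaks 8.62% to 58.7%, and day 15 peaks at most 5.92%; these counts include the copies in shared, lost regions, where the rule set the peaks, and outside them the shares are 52.7% to 95.6%, 0.576% to 14.7% and at most 9.92%.

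The place of the peaks was also read around these sequences, for copies inside a region only. Where a genotype had several peaks in a region, only its highest-scoring one was read. The median width of the shared, lost regions was 2132.5 bp. The median length covered was 2041 bp by Hira-null and 946.5 bp by WT peaks. Cover of a copy by the Hira-null peak is thus largely set by this choice, and the shares covered are a description only. The 31 bases were covered by the Hira-null day 0 peak in all 784 regions with a single copy of A, and by the strongest WT day 0 peak in 562 of them (71.7%). Read along the strand printed for A, the middle of the Hira-null peak lay a median of 691 bp downstream of the sequence, and the middle of the WT peak 57.3 bp downstream. For C the Hira-null peak covered the sequence in all 203 regions and the strongest WT peak in 74 (36.5%). More copies of C lay in a WT day 0 peak when every WT peak was counted. Of the 113 such copies, 3 lay outside the shared, lost regions. The middles of the peaks lay upstream of C, at a median of -373 bp for the Hira-null peak and -594 bp for the strongest WT peak. For D, the peaks of both genotypes sat on the sequence. The Hira-null peak covered it in all 188 regions with a median offset of 50.5 bp, and the strongest WT peak in 181 (96.3%) with a median offset of 7.0 bp. How reads that match several places were handled is not given in the sources used here, and its part in the position and height of peaks on repeated sequence was not tested.

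Counted over the whole set rather than by single sequences, 1673 of the 4724 regions (35.4%) were repeat-rich, meaning that at least 50% of their 31-base sequences occur 10 or more times in the genome. This share was 7.73% among the 1035 regions shared at day 0 that kept a day 15 peak and 7.36% in 10244 windows of 2132 bp placed every 250 kb along the genome. It was 40.2% in the 10938 regions with a Hira-null day 0 peak only and 1.29% in the 11112 regions with a WT day 0 peak only. Exact binomial intervals at 95%, which cover counting error over regions only, were 34.0% to 36.8% for the shared, lost regions and 6.18% to 9.53% for those that kept a day 15 peak. Of the repeat-rich regions, 1491 (89.1%) held at least 1 of the sequences A to F, and 1115 (66.6%) held A. CpG dinucleotides were frequent in the repeat-rich regions, with a median of 2.48 per 100 bp. The median was 1.27 over all shared, lost regions and 0.704 in the genome windows. It was higher, 1.63, in the Hira-null day 0 only regions. The WT day 0 only regions had 1.07 and those that kept a day 15 peak 1.00. At the other end, 992 regions (21.0%) were at least 90% unique sequence, against 64.7% of the genome windows. This share was 33.2% in the regions that kept a day 15 peak. It was 15.7% in the Hira-null day 0 only and 80.4% in the WT day 0 only regions.

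Within the shared, lost regions, the score of the 2 genotypes followed repeat content in opposite directions. The rule asks for a peak in both lists, so scores below 50 are cut off in each. The median WT score was near that limit, at 75.1 in the repeat-rich and 94.6 in the other regions. This cut bears on the shares and correlations below, which describe the chosen set only. Sorted by Hira-null day 0 score, the repeat-rich share was 9.94% in the lowest 10% of the regions and 57.6% in the highest 10%, with its maximum of 61.9% in the 10% just below those. Sorted by WT day 0 score, it was 49.5% in the lowest and 8.90% in the highest 10%. Across the regions, the Hira-null and WT scores were only weakly related, with a Spearman rho of 0.12 and a Pearson r of 0.14 over 4724 regions, which share their libraries and are not replicates.

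**Figure D2:**
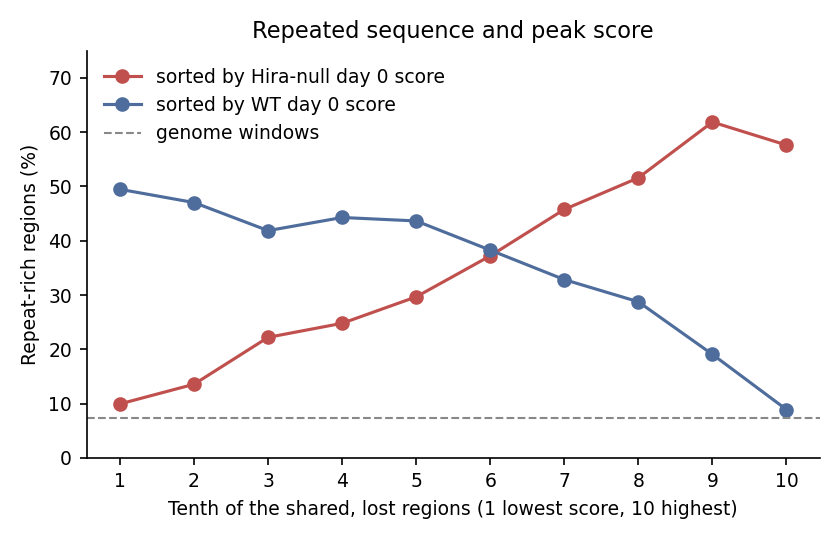
Percentage of repeat-rich regions (vertical axis) in each of 10 equal groups of the shared, lost regions (horizontal axis, group 1 with the lowest scores), sorted by the Hira-null day 0 score or by the WT day 0 score, with the share in genome windows as a dashed line. The share climbs to 61.9% with the Hira-null score and drops to 8.90% with the WT score.

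By score, the shared, lost regions stood high in the Hira-null list and near the middle of the WT list. Their median place was the top 26.3% of the Hira-null and the top 45.5% of the WT list. In the regions that kept a day 15 peak, it was the top 27.8% and the top 24.6%. The rule asks for overlap with a WT peak, which longer Hira-null peaks meet more easily. It bears on the shares that follow, which are a description only. Of the 10% of Hira-null day 0 peaks with the highest scores, 59.6% lay in these regions, and of the lowest 10% 9.66% did. In the WT day 0 list, 22.9% of the highest and 19.6% of the lowest 10% lay in them. The median score in the regions was 221 in Hira-null cells and 85 in WT cells. In the regions that kept a day 15 peak the medians were 212 in Hira-null and 119 in WT cells. Scores depend on depth, so the raw scores of the genotypes are given side by side and only ranks within a list are compared. The Hira-null peak had the better within-list rank in 68.1% of the shared, lost regions and in 52.0% of the regions that kept a day 15 peak.

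Hira-null peaks were also the longer ones, as they were over the whole day 0 lists. There the median peak width was 1514 bp in Hira-null and 1045 bp in WT cells. In 4226 of the 4724 regions (89.5%, 88.5% to 90.3%), Hira-null peaks covered more bases than WT peaks, and the share was 73.1% in the regions that kept a day 15 peak. The median length covered was 2041 bp in Hira-null cells and 946.5 bp in WT cells, and the median ratio of Hira-null over WT length was 1.93, against 1.44 in the regions that kept a day 15 peak. The WT peaks lay wholly inside a Hira-null peak in 3781 regions (80.0%), and the reverse held in 221 (4.68%). Peaks were simple in structure, with exactly 1 peak of each genotype in 4430 regions. Among the 3051 regions that were not repeat-rich, Hira-null peaks covered more bases in 83.9%, and among the repeat-rich ones in 99.6%. Whether the longer Hira-null peaks reflect more H3.3 or a deeper library was not tested.

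**Figure D3:**
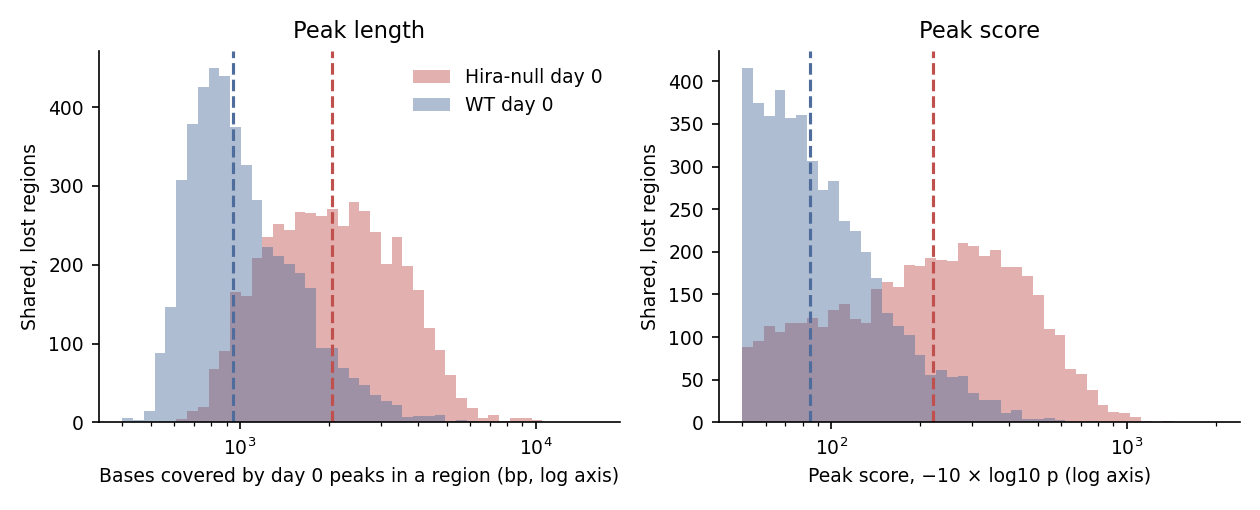
Numbers of shared, lost regions (vertical axes) by the bases covered by day 0 peaks (left, log axis, bp) and by peak score (right, log axis), in Hira-null and WT cells, with medians as dashed lines. The Hira-null distribution is centred on 2041 bp and a score of 221, the WT distribution on 946.5 bp and a score of 85.

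The regions were mostly far from genes. By their midpoints, 3439 (72.8%) were distal intergenic, that is outside protein-coding genes and more than 3 kb from their ends, while points every 200 bp over the genome gave 57.4%. Introns held 1067 regions (22.6%, genome 35.4%) and promoters, taken as the 3 kb before a transcription start site (TSS), held 68 (1.44%, genome 2.56%). Of the regions that kept a day 15 peak, 51.7% were distal intergenic, 31.2% intronic and 5.51% in promoters. The Hira-null day 0 only regions had a like makeup, with 73.1% distal intergenic, 22.6% intronic and 1.42% in promoters. The WT day 0 only regions had 40.1%, 45.1% and 8.17% in these classes. The intervals for the shared, lost regions were 71.5% to 74.1%, 21.4% to 23.8% and 1.12% to 1.82%. The repeat-rich share was 39.6% of the distal intergenic regions, 27.6% of the intronic and 8.82% of the promoter regions. Without the repeat-rich regions, 68.1% of the rest were distal intergenic and 2.03% in promoters.

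**Figure D4:**
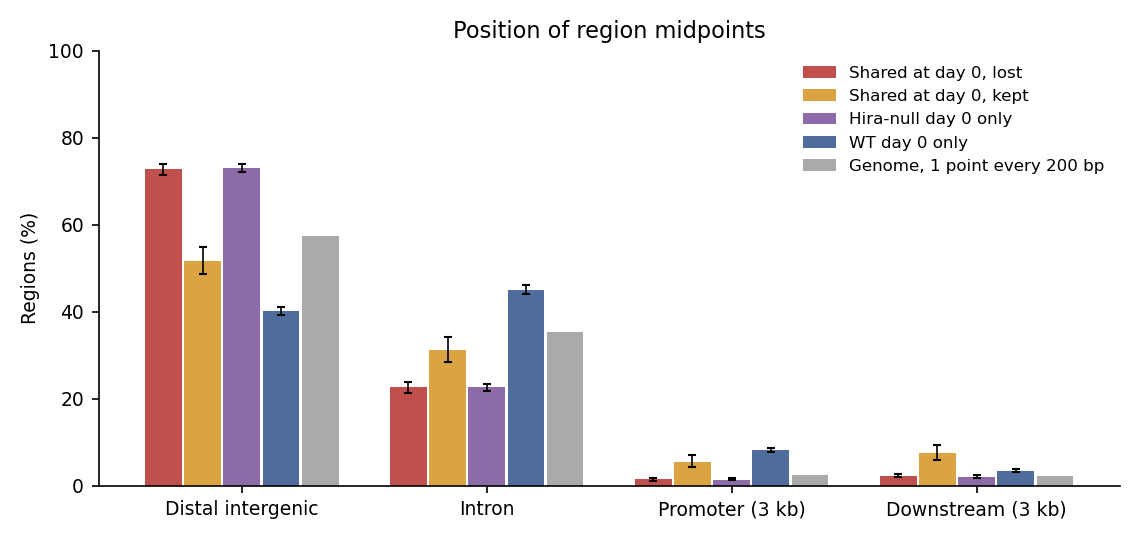
Percentage of regions (vertical axis) whose midpoint lies in each class, for the shared, lost regions, the regions that kept a day 15 peak, those of a single genotype at day 0, and genome points, with exact 95% binomial intervals as bars. Of the shared, lost regions 72.8% are distal intergenic and 1.44% lie in promoters.

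In the day 0 lists, 5759 regions were shared by the genotypes, and the 4724 lost ones make 82.0% of them (81.0% to 83.0%). This lies between the shares without a day 15 peak among all regions with a Hira-null day 0 peak (88.8%) and all with a WT day 0 peak (72.4%). Of the other 1035, 462 had a Hira-null day 15 peak only, 277 a WT day 15 peak only and 296 both. The nearest day 15 peak was a median of 56.1 kb away from a shared, lost region. It was within 1 kb of 124 regions and within 10 kb of 892 (18.9%), so a distinct day 15 peak stood close by in these. At the edge of the rule, the closest day 15 peak left a gap of 10 bp to a shared, lost region, and among the regions excluded for a day 15 peak the smallest overlap was 2 bp. The smallest overlap of Hira-null and WT day 0 peaks was 1 bp, and 4 regions had less than 50 bp.

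Chromosome X stood apart. It held 122 shared, lost regions, 0.753 per Mb of known sequence, while the numbered chromosomes held 1.52 (chromosome 2) to 2.50 per Mb (chromosome 17). Of the X regions, 112 (91.8%) were repeat-rich and 81 held sequence A. Of the day 0 shared regions on X, 98.4% had no day 15 peak. The share without a day 15 peak was lowest on chromosome 11, at 70.3%, where 122 regions kept a day 15 peak. On the other numbered chromosomes the share ran from 78.4% (chromosome 15) to 87.1% (chromosome 3).

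A gene was counted when a region touched its window, from 10 kb before the TSS to 200 bp past its end. Of 22367 protein-coding genes, 1464 (6.55%) had a shared, lost region in the window, and 74 (0.331%) had one within 1 kb of the TSS. These genes were long, with a median of 54.2 kb, against 15.4 kb over all genes. At day 15, 347 of them (23.7%) had a Hira-null peak and 692 (47.3%) a WT peak elsewhere in the window. Over all genes, 13.3% had a Hira-null and 37.1% a WT day 15 peak.

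Pluripotency genes had the highest share of the 13 gene lists. Of the 40 listed genes, 15 (37.5%, 22.7% to 54.2%) had a shared, lost region, beside the 6.55% of all protein-coding genes, although the listed genes were short, with a median of 9.61 kb. Among the 15, Dppa5a counted through the WT part of its merged region only, with no Hira-null day 0 peak in the window. At day 15, 5 of the 40 carried a Hira-null and 14 a WT peak somewhere in the window, while 16 carried a Hira-null and 34 a WT peak at day 0. Of all 22367 protein-coding genes, 2977 (13.3%) carried a Hira-null and 8308 (37.1%) a WT peak at day 15. At day 0, 4223 of them carried a Hira-null and 7520 a WT peak. The list was chosen with earlier results of these data known. Pou5f1, Sox2 and Klf4, core factors of the same network, had none. All 15 also counted when repeat-rich regions were left out. Requiring that no day 15 peak lay within 10 kb left 9 of them, a minimum day 0 score of 100 left 7, and lists cut to the same number of peaks left 6. Over all protein-coding genes, the number with a region fell from 1464 to 1066, 538 and 477 under the same settings.

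Nanog, a homeodomain factor of the pluripotency core, had 2 regions. The one at its 3′ end, chr6:122661071-122666995, had a Hira-null score of 446 and a WT score of 482, which ranked 1168th of the Hira-null and 143rd of the WT list. The other, chr6:122651393-122654694, had its midpoint at -4463 bp from the TSS, with scores of 154 in Hira-null and 271 in WT cells. Its neighbour Dppa3, a maternal factor that protects DNA methylation, had a promoter region at chr6:122574107-122575527 with scores of 258 in Hira-null and 169 in WT cells. Dppa3 had no peak in its window at day 15 in either genotype, and Nanog had 1 WT peak and no Hira-null peak. Zfp42 (Rex1), a zinc finger marker of ES cells, had a pair of adjoining regions, one in an intron and one past its end. Their Hira-null scores were 222 and 411, and their WT scores 356 and 378. Its window also held no day 15 peak.

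Jarid2, a cofactor of Polycomb repressive complex 2, had a region with one of the 5 highest Hira-null scores of the set. The region chr13:45012657-45021103, 8447 bp long and 98.4% unique sequence, had a Hira-null score of 1413 and a WT score of 324. Hira-null peaks covered all 8447 bp of it, and WT peaks 3325 bp. Jarid2 kept other peaks at day 15, with 1 in Hira-null and 9 in WT cells, so peaks elsewhere in the gene window were still called. Jam2, a junctional adhesion molecule expressed in ES cells, had an intronic region with scores of 794 in Hira-null and 191 in WT cells. Esrrb, an orphan nuclear receptor of the naive state, had 2 intronic regions, with Hira-null scores of 143 and 112 and WT scores of 58 and 276. The Esrrb window also had 1 Hira-null day 15 peak and no WT day 15 peak.

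Several of the list's regions were in the upper part of the WT list by score and in the lower part of the Hira-null list. Tet1, an enzyme that oxidises 5-methylcytosine, had an intronic region of 6778 bp with scores of 69.6 in Hira-null and 324 in WT cells. Tcfcp2l1, a transcription factor of the naive state, had scores of 71.2 in Hira-null and 232 in WT cells. Dppa5a, an RNA-binding protein of ES cells, had a region past its end with scores of 68.3 in Hira-null and 363 in WT cells. A region in the 10 kb before Trim28, the corepressor of retroelement silencing, had scores of 66.4 in Hira-null and 240 in WT cells. L1td1, an RNA-binding protein, had scores of 449 in Hira-null and 80.1 in WT cells, which ranked 1136th of the Hira-null and 11441st of the WT list. The remaining genes were Tdgf1, a Nodal co-receptor, Lefty1, a Nodal antagonist, Mycn and Dnmt3b, with Hira-null scores of 72 to 178 and WT scores of 69.3 to 138.

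Among the genes of retroelement silencing, 4 of 22 (18.2%, 5.19% to 40.3%) had a region. Zfp57, a zinc finger protein that maintains methylation at imprinted loci, had 3 within 20 kb and the highest density of all genes with at least 3. One region inside the gene's 3′ part had a Hira-null score of 485 and a WT score of 190, and the next, which runs past the gene end, had 205 in Hira-null and 231 in WT cells. The third, before the TSS, had 102.96 in Hira-null and 238 in WT cells. Its window had no day 15 peak of either genotype. Morc3, a silencing ATPase, had 2 regions, and Dnmt3b and Trim28 are those of the pluripotency list. None of the 33 imprinted genes found had a region, which leaves up to 10.6% by the interval. The 6.55% of all genes lies inside the intervals of both lists. Of the imprinted genes, 21 had a Hira-null and 17 a WT day 15 peak in the window, beside 13.3% and 37.1% of all protein-coding genes.

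Few genes of the differentiated cells had a region, and their lists are too small to set them apart from the 6.55% of all genes. Of 27 cardiac transcription factors, 1 (3.70%) had a region, Smyd1, a methyltransferase of muscle, with scores of 51.1 in Hira-null and 342 in WT cells. Of 25 genes of the sarcomere and of calcium handling, 2 had one. Ryr2, the cardiac calcium release channel, had 3 intronic regions with Hira-null scores of 122, 51 and 340 and WT scores of 371, 104 and 55.3, and it had 4 Hira-null and 5 WT peaks elsewhere at day 15. Casq2, the calcium-binding protein of the sarcoplasmic reticulum, had a promoter region with scores of 87 in Hira-null and 89.1 in WT cells. Tek, an endothelial receptor, was the only 1 of 14 endothelial and blood genes. None of 14 matrix, 12 endoderm, 10 smooth muscle or 15 housekeeping genes and none of 11 H3.3 and chaperone genes had a region, and their intervals reach 21.8% or more.

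Neural genes had 7 of 28 (25%, 10.7% to 44.9%), but these genes have a median length of 675 kb. Cntnap2, a neuronal adhesion protein, had 3 regions, the strongest with scores of 482 in Hira-null and 233 in WT cells. Dcc, Dlg2, Dlgap1, Lrp1b, Opcml and Pax6 had 1 each. Of 30 germline genes, 3 (10%) had a region. Tex14, needed for intercellular bridges of germ cells, had scores of 716 in Hira-null and 426 in WT cells in an intron, and Stk31 had 602 in Hira-null and 271 in WT cells. Mov10l1, a helicase of the piRNA pathway, had 177 in Hira-null and 104 in WT cells.

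**Figure D5:**
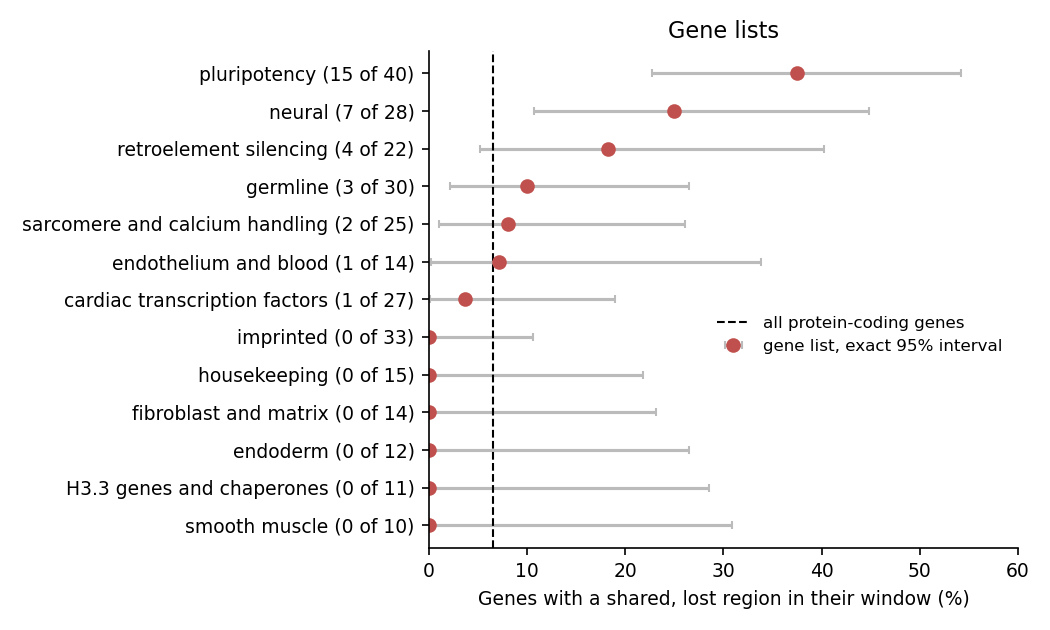
Percentage of the genes of each list (rows, with counts) that have a shared, lost region in the window, with exact 95% binomial intervals for counting error, beside the share of all protein-coding genes as a dashed line. Pluripotency genes stand at 37.5% and all protein-coding genes at 6.55%.

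Of gene families set by name, 35 of 371 Zfp genes (9.43%, 6.66% to 12.9%) had a region, while 0 of 67 histone cluster genes did, with an upper limit of 5.36%. At day 0, 3 of those 67 histone genes carried a Hira-null peak and 53 a WT peak. Of all 22367 protein-coding genes, 4223 carried a Hira-null and 7520 a WT day 0 peak. Olfactory receptor genes, at 29 of 1113 (2.61%), and ribosomal protein genes, at 3 of 144 (2.08%), were below the share of all genes. These are short genes, with a median length of 0.96 kb for olfactory receptor, 2.37 kb for ribosomal protein and 0.53 kb for histone genes, against 15.4 kb over all genes, so their windows are smaller. Glutamate receptor genes had 5 of 19 and cadherin genes 4 of 23, with median lengths of 278 kb and 139 kb.

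The regions with the best ranks in both lists showed what a strong, jointly called region looked like. To let the sequence under them be seen, 200 bases around the middle of the overlap of Hira-null and WT peaks are printed for the best-ranked distal intergenic, intronic and promoter region, with CG dinucleotides in capitals.
Distal intergenic, near Zfp808, chr13:62283668-62283867, plus strand: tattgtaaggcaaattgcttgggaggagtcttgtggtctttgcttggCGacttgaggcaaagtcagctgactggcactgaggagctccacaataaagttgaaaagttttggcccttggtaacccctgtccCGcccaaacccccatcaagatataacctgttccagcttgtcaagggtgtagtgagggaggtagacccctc
Intron of Pigl, chr11:62323880-62324079, plus strand: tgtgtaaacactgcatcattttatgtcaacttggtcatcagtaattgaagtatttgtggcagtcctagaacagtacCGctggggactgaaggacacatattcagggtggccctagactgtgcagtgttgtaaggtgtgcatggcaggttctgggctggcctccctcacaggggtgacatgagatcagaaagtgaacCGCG
Promoter of Gm5805, chr15:81799771-81799970, plus strand: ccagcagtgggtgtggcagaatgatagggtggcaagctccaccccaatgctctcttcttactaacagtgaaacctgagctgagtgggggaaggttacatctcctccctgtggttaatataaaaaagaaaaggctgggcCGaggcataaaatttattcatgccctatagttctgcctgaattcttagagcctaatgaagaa

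The Pigl region, chr11:62320905-62327429, ranked 52nd in the Hira-null and 83rd in the WT list, with scores of 1000 in Hira-null and 596 in WT cells. The nearest day 15 peak was 4.66 kb away. The region near Zfp808, chr13:62281662-62285701, had scores of 884 in Hira-null and 538 in WT cells. The next of the 10 best-ranked regions lay near Zfp97 (Hira-null 776, WT 433), in Irak3 (Hira-null 883, WT 414), in Tex14, near 4933403G14Rik (Hira-null 713, WT 739), near Zfp934 (Hira-null 701, WT 527), near Actr2 (Hira-null 684, WT 579), in Arfgef1 (Hira-null 683, WT 379) and in Pcmtd1 (Hira-null 715, WT 367). A day 15 peak stood 87 bp from the Actr2 region.

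The highest Hira-null score, 1797, was at chr7:27478177-27486949, upstream of Cyp2b23, a cytochrome P450, where the WT score was 203. It was the fifth-ranked peak of the whole Hira-null list and lay 115 kb from any day 15 peak. The next were near Gm13152 (Hira-null 1632, WT 109), in an intron of Ppa2, a mitochondrial pyrophosphatase (Hira-null 1478, WT 349), at Jarid2, and at the 3′ end of Ifitm7 (Hira-null 1365, WT 247). The highest WT score, 980, was at chr13:66724942-66730043 near Zfp640, where the Hira-null score was 255. The next WT scores were 758 near Gpt2 (Hira-null 258), 739 near 4933403G14Rik, 639 near Tgif1 (Hira-null 595) and 617 in an intron of Sntb1 (Hira-null 258).

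Within 1 kb of a TSS there were 73 regions. The best-ranked besides that of Gm5805 (Hira-null 774, WT 195) were at Gm17448 (Hira-null 373, WT 207), Cyb5r1 (Hira-null 372, WT 306), Dnahc8 (Hira-null 321, WT 146), EU599041 (Hira-null 419, WT 141), Dppa3, Ttll4 (Hira-null 662, WT 126), Zfp445 (Hira-null 960, WT 122), 4930425F17Rik (Hira-null 298, WT 115) and Rpe (Hira-null 315, WT 113). The Cyb5r1, Ttll4 and 4930425F17Rik regions were repeat-rich, with 95.5%, 74.4% and 77.0% of their 31-base sequences present 10 times or more. The Zfp445 region, chr9:122766403-122772838, was 91.6% unique. Zfp445 is a KRAB zinc finger gene.

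Some of the regions lay close together. Other groups of regions were not joined in this way, so whether these lie closer together than peaks in general was not tested. When regions up to 50 kb apart were joined, 3066 (64.9%) stood alone and 644 fell into 176 clusters of at least 3. The largest cluster, chr6:37640989-37887530, had 14 regions before and within Trim24, a ubiquitin ligase of the TRIM family, and none of them was repeat-rich. Their Hira-null scores ran from 65.1 to 362 (median 203) and their WT scores from 51 to 180 (median 106), and Hira-null peaks covered more bases in all 14. The same 247 kb held 14 regions with a Hira-null day 0 peak only, 2 with a WT day 0 peak only and 3 shared regions that kept a day 15 peak.

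A second cluster, chr4:146680849-146955739, held 9 regions among predicted genes such as Gm13152 and Gm13154. Here Hira-null peaks covered more bases in 5 of 9, and a further 3 regions had a Hira-null day 0 peak only, against 15 with a WT day 0 peak only. A pair of clusters on chromosome 11 (8 regions at chr11:27934432-28089783 and 7 at chr11:6644978-6784107) and one on chromosome 2 (7 regions at chr2:17813452-17941437) had no Hira-null day 15 peak, and 1 WT day 15 peak stood in the second of them.

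Among windows of 1 Mb, the densest was 66 to 67 Mb on chromosome 13, with 25 regions among Zfp640, predicted genes and genes named Vmn2r-ps. Its Hira-null scores ran from 58.2 to 648 (median 211) and its WT scores from 51.5 to 980 (median 121). It also had 25 regions with a Hira-null day 0 peak only and 40 with a WT day 0 peak only. The windows 62 to 63 Mb on chromosome 13 (16 regions, with Zfp808, Zfp934 and Zfp935), 17 to 18 Mb on chromosome 17 (15, with Zfp97 and Zfp960) and 177 to 178 Mb on chromosome 2 (15, with Gm14409 and other predicted genes) were the next densest besides one on chromosome 11. That window, 27 to 28 Mb with 16 regions, held no day 15 peak and no annotated protein-coding gene.

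Of single genes, Etl4 had the most regions, 8, all in introns of this 901 kb gene. Their Hira-null scores ran from 85.2 to 763 and their WT scores from 51.2 to 316, both highest in the region at chr2:20588720-20592581 that supplied sequence D. Etl4 also had 4 Hira-null and 13 WT day 15 peaks. Ctbp2, a corepressor of transcription, had 5 neighbouring intronic regions between chr7:140233797 and chr7:140278747. The first of them was the second-widest of the whole set, 14945 bp, of which Hira-null peaks covered 14891 bp in 1 peak and WT peaks 4417 bp in 5 peaks. The Hira-null scores of the 5 were 180 to 621 and the WT scores 61 to 136. The same regions counted for Fgfr2, which had 7 in an annotated span of 3009 kb that overlaps most of Ctbp2.

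Ppp1r9a, a neuronal actin-binding protein, had 5 regions, and the Hira-null peak had the better within-list rank in 2 of them. One at chr6:4941185-4944191 had scores of 860 in Hira-null and 230 in WT cells, in the top 0.508% of the Hira-null and 5.36% of the WT list. One at chr6:4929563-4931771 had 51 in Hira-null and 274 in WT cells, ranking 17495th in the Hira-null and 772nd in the WT list. Trim24 and the predicted gene Gm13242 also had 5 each, and the widest region of the set, 15112 bp, lay in Gm13242. There Hira-null peaks covered 7306 bp and WT peaks 14975 bp, with scores of 774 in Hira-null and 226 in WT cells. The next widest after that of Ctbp2 were 12846 bp in distal intergenic sequence nearest to Gm13138 (Hira-null 68.8, WT 304), 11281 bp in an intron of Ppm1b, a protein phosphatase (Hira-null 1227, WT 175), and 10382 bp in an intron of 2610305D13Rik (Hira-null 228, WT 289). There were 4 regions each at Cobl, an actin nucleator, at Cgn, at 3110057O12Rik and at AW554918. At Cobl the Hira-null peak had the better within-list rank in 1 of the 4 regions. The intronic regions had Hira-null scores of 775 and 130 and WT scores of 168 and 149, ranking in the top 0.757% and 47.1% of the Hira-null list and the top 11.7% and 15.2% of the WT list. In the region farther before the TSS the Hira-null score was 61 and the WT score 440.8, in the top 87.3% of the Hira-null and 0.832% of the WT list.

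Short motifs were searched on both strands in the 300 bp around the midpoint of each region. ATGCAAA, from the octamer bound by POU factors, was found in 544 of the 4724 regions (11.5%), in 7.77% of the other merged regions and in 7.24% of the genome windows. It was in 49.3% of the 300 regions with sequence D or E, whose printed stretch D contains it, in 13.1% of the 2762 regions without any of A to F, and in 3.29% of the repeat-rich regions. AAGGTCA, the extended half-site of nuclear receptors such as Esrrb, was in 8.11% of the regions, 6.62% of the other merged regions and 5.53% of the windows. TTAGGG, the telomere unit, was in 18.9% of the regions, 12.6% of the other merged regions and 10.8% of the windows. The printed stretch D contains it too, and it was in 52.3% of the regions with D or E and in 14.9% of those without any of A to F. The E-box CACGTG was in 2.62% of the regions, 3.18% of the other merged regions and 3.07% of the windows. GATAAG, bound by GATA factors, was in 8.04% of the regions, 12.8% of the other merged regions and 10.5% of the windows, with 4.12% in the repeat-rich and 10.2% in the remaining shared, lost regions. TGACTCA, the AP-1 site, was in 6.35% of the regions, 7.40% of the other merged regions and 4.71% of the windows, and GGGTGTG, bound by KLF factors, was in 5.84% of the regions, 6.86% of the other merged regions and 4.66% of the windows. In the repeat-rich regions TGACTCA was in 0.179% and GGGTGTG in 0.598%. A match says only that these letters stand in the window.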

How the data were processed

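H3.3-HA ChIP-seq peaks of 4 libraries were analysed, Hira-null and WT at day 15 and at day 0, grouped by the sample labels. According to the paper's methods, the authors aligned paired-end reads to mm9 with Bowtie, removed duplicates with Samtools and called peaks with MACS 1.4.2 (named in the submitters' processing notes) at its default threshold. The deposited lists give a chromosome, start, end and score per peak, and the score, as the authors' peak caller wrote it, grows with the negative log10 of each peak's p-value. Scores rise with depth, which is unknown, so they were ranked only within a list. Whether the inputs served as controls is not given in the sources used here, and the inputs were not used here.

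Peaks of all lists were merged where they overlapped by at least 1 bp, with Python 3.11.15, numpy 2.4.6, pandas 2.3.3 and scipy 1.17.1. Sequence and genes came from NCBIM37 (mm9) and GENCODE mouse M1. Copies of every 31-base sequence were counted on both strands of chromosomes 1 to 19, X and Y. Share of soft-masked bases, planned as a measure, was dropped because the genome copy carries no masking. Exact Clopper-Pearson intervals at 95% cover counting error over regions only. The merging and the copy counts were tested on simulated data. The members, gene lists and name patterns were chosen with earlier results of these data known. Of the listed genes, 7 imprinted and 2 neural genes were not found under their names in the annotation. Named were the 10 regions best ranked in both lists, the 5 widest, the 5 with the highest score of each genotype, the 5 largest clusters and 1 Mb windows, the 10 genes with the most regions (ties by name), the 10 best-ranked regions within 1 kb of a TSS and the list genes with a region. Sequences A to F, the repeat-rich class and the motifs were described after the data were seen. Alternatives changed score minimum, list length, merging gap, overlap, distance to day 15 peaks, chromosomes, class rule, promoter length, gene window and repeat content.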

Additional observations from a re-analysis of the deposited data

How the results depend on the processing

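No paired analysis was possible because each condition has 1 library. Some values moved outside their counting interval, or by over 1.5 times for counts, and none of these changes was tested for its cause. With day 0 scores of at least 100 there were 1478 regions and 538 genes, 75.5% of the day 0 shared regions had no day 15 peak, 70.1% of regions were distal intergenic and 24.4% intronic, and the median width was 2447.5 bp. With each list held to 7332 peaks there were 1249 regions and 477 genes, 78.3% had no day 15 peak, 69.0% were distal intergenic and 24.8% intronic, the median width was 2585 bp, and Hira-null peaks covered more bases in 94.2%. With day 15 scores of at least 100, 89.5% of the day 0 shared regions had no day 15 peak, with peaks up to 1 kb apart merged 78.9% (median width 2432 bp), and without chromosomes 8 and 11 83.2% (Hira-null covering more in 91.1%). Asking for no day 15 peak within 10 kb gave 66.5%, with 75.3% distal intergenic, 20.6% intronic and Hira-null covering more in 91.4%. Class by any overlap gave 70.7% distal intergenic, 18.9% intronic and 2.88% promoter regions, and a promoter of 1 kb gave 0.339%. Without repeat-rich regions, an alternative chosen after seeing the data, 3051 regions remained, 76.2% of the day 0 shared regions had no day 15 peak, 68.1% were distal intergenic, 25.3% intronic and 2.03% in promoters, the median width was 1776 bp, and Hira-null peaks covered more bases in 83.9%. Requiring 50% of the shorter day 0 peak length to be shared, or chromosomes 1 to 19 only, moved none of the 8 values. Depth limits what the absence of a day 15 peak can show, above all in the Hira-null list.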
